A study of Mus musculus with 12 samples.

Results

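Iron sensing, transport and storage was followed in mouse liver RNA through 10 genes, picked by name from the 34986 genes of the authors' table. They were the hepcidin genes Hamp and Hamp2, the iron sensors Hfe and Tfr2, the signal gene Bmp6, transferrin (Trf) and its receptor (Tfrc), the iron exporter Slc40a1, and the ferritin chains Fth1 and Ftl1. RNA sequencing compared 6 livers of the VPA_OCA group with 6 livers of the VPA group, from female C57BL/6 mice aged 16 weeks. Treatment in VPA_OCA was valproic acid together with OCA, obeticholic acid, an agonist of the bile acid receptor FXR. In VPA it was valproic acid alone, a drug against epilepsy with known liver toxicity, so both groups carried that drug. No dose or duration stands in the labels, and untreated mice were not analysed here. The labels carry no iron measurement, and every value below is a transcript level or a difference of transcript levels.

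Hepatocytes secrete hepcidin, a peptide that binds the iron exporter ferroportin (the product of Slc40a1) and brings about its degradation, which lowers iron entry into plasma. Transcription of Hamp is raised by bone morphogenetic proteins such as BMP6, made largely by endothelial cells of the liver sinusoids, through SMAD proteins, and by interleukin 6 through STAT3. Hfe and Tfr2 take part in sensing iron-loaded transferrin at the hepatocyte surface. Inside cells, iron regulatory proteins bind hairpins called iron-responsive elements when iron is scarce. Such an element before the coding sequence blocks translation, as in ferritin and ferroportin messages, while those after the coding sequence of Tfrc protect the message from decay.

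Levels below are the normalized counts that the authors deposited, which are reads per gene scaled by a factor for the library. Library sums of these values ran from 20236900 to 22087711. Estimated depths ran from 17879222 to 22021646 reads, apart from VPA_OCA replicate 1 at 37746632. Fold changes are differences of log2(normalized count + 1), VPA_OCA over VPA, with a standard error (SE). Adjusted p-values are from limma with Benjamini-Hochberg adjustment over the 19006 genes tested. The SE is also from limma, which draws each gene's variance toward that of genes of similar level. An SE can therefore differ from what the gene's own scatter gives. All 6 hepatocyte markers were detected, with summed levels of 1894000 to 3165000 normalized counts in VPA_OCA and 2153000 to 3162000 in VPA. The libraries differed by replicate number in both groups. Numbers 4 to 6 scored 16.3 or more, and numbers 1 to 3 -10.3 or less, on a first principal component holding 40.4% of the variance. The labels name no batch, so each result is also given within these 2 sets of numbers, with 3 libraries per group in each. The sets were chosen because these same libraries separate by them. A gene's difference between the sets is therefore given as a description, without a p-value. Skeletal muscle transcripts set VPA replicates 4 and 5 apart, with summed levels of 8 markers of 535.9 and 139.5 there and 9.486 to 30.08 in the other 10 livers.

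The regulatory elements through which these genes are known to be controlled are shown first, since they set which of them a transcript level can report on. The proximal promoters of the neighbouring hepcidin genes on chromosome 7 carried nearly the same letters. The stretches run from 150 to 11 bases before the RefSeq start, on the minus strand of GRCm38, at chr7:30944040-30944179 for Hamp and chr7:30924192-30924331 for Hamp2. Capitals mark the GGCGCC core of the BMP-responsive element of Hamp (with the matching letters of Hamp2) and the STAT-type motif TTCNNNGAA.
Hamp promoter: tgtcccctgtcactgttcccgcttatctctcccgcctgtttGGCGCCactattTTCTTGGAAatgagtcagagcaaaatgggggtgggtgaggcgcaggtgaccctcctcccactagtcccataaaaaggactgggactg
Hamp2 promoter: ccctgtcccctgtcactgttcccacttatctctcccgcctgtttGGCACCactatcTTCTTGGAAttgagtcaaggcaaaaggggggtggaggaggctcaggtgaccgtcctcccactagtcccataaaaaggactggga

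Counted from 1 at the 5′ end of the core, the letters of Hamp2 differ from those of Hamp by G4A. Over the 300-base RefSeq windows, 250 bases before to 50 after the start, Hamp and Hamp2 were 91.1% identical. GGCGCC, searched on both strands, occurred in 11.9% of 32851 promoter windows, TTCNNNGAA in 8.3%, and both together in 0.645%. Windows were found for 8 members, all but Trf and Slc40a1. The Hamp window held both motifs, that of Hamp2 TTCNNNGAA without GGCGCC, and 1 window of Tfrc GGCGCC. No window of Hfe, Tfr2, Bmp6, Fth1 or Ftl1 held either. A match of letters is a description and not a bound site.

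Iron-responsive elements were searched in GENCODE M21 transcripts as a C, 5 bases, CAGTGN (last base not G) and 5 bases pairing with the first 5, with G-U pairs allowed. Matches stood in the 5′ UTR of 23 of 21901 coding genes (0.105%), among them Fth1, Ftl1 and Slc40a1. In 3′ UTRs, 100 genes (0.457%) had a match, and Tfrc, with 4, was the 1 gene with more than 1. The pattern misses elements with another loop or an unpaired stem base, so matches can be fewer than the elements present. Capitals mark the loop.
Fth1, 5′ UTR, chr19:9982732-9982760, plus strand: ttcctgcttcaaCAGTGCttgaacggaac
Ftl1, 5′ UTR, chr7:45459779-45459807, minus strand: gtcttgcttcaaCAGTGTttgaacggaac
Slc40a1, 5′ UTR, chr1:45925465-45925493, minus strand: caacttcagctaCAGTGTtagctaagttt
Tfrc, 3′ UTR, chr16:32631219-32631247, plus strand: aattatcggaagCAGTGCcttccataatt
Tfrc, 3′ UTR, chr16:32631598-32631626, plus strand: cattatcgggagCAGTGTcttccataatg
Tfrc, 3′ UTR, chr16:32631663-32631691, plus strand: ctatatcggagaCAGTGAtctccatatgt
Tfrc, 3′ UTR, chr16:32631710-32631738, plus strand: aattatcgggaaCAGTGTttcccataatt

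The other 6 members, Hamp, Hamp2, Hfe, Tfr2, Bmp6 and Trf, had no match in either UTR. An element before the coding sequence acts on translation, so message levels of Fth1, Ftl1 and Slc40a1 do not report it, whereas those of Tfrc can.

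None of the 10 genes passed the test between VPA_OCA and VPA. By limma 0 of 10 had an adjusted p under 0.05, where 0.721% of the 19006 genes tested did (137), and 1 of 10, Bmp6, had an unadjusted p under 0.05, where 9.55% did. With the number sets as a term 0 of 10 passed, where 2.13% of genes did (404). With the replicate number as a block, 210 genes passed and none was a member. All 10 passed the filter on low values, and in 0 of 10 were the groups of 6 apart without overlap, where 1.44% of genes were. Within numbers 1 to 3 alone and 4 to 6 alone 0 of 10 passed by limma, where 0.637% and 0.5% of genes did, and in the interaction of group and number set 0 of 10, where 0.0105% did. The authors' deposited table gave an adjusted p under 0.05 to 1 of 10, Tfrc (0.0329), where 5.57% of its 12517 present genes had one, and values from 0.108 (Bmp6) to 0.95 (Ftl1) to the other 9. The median log2 fold change of the 10 was -0.05, with 4 positive and 6 negative, beside -0.00 over all genes tested.

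**Figure D1:**
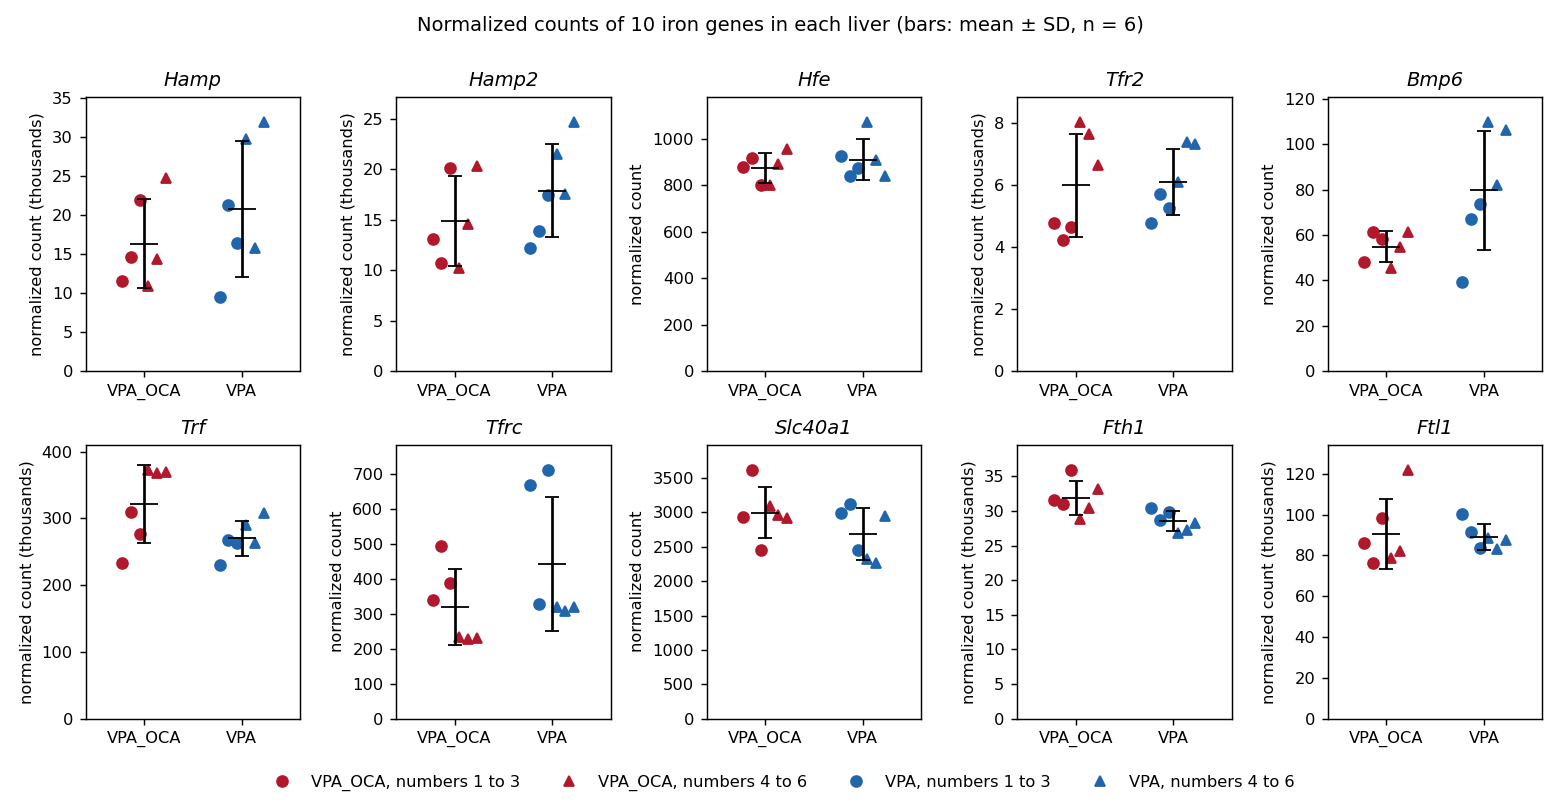
Normalized counts of the 10 genes in each liver, VPA_OCA left and VPA right, with axes from 0; circles are replicate numbers 1 to 3, triangles 4 to 6, and bars the mean ± SD (n = 6). Values of the groups overlap for each gene, the hepcidins scatter widely, Hfe and Fth1 lie close together, and Tfrc (lower) and Tfr2 (higher) differ between triangles and circles in both groups.

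The genes differed far more from each other than between the groups. Compared as counts per kilobase of the longest coding transcript and per 1000000 counts of the library, Trf stood highest, at 5868 ± 1038 in VPA_OCA and 4910 ± 525 in VPA (SD, n = 6 each). Ftl1 followed, at 4412 ± 921 and 4302 ± 326 on that scale for VPA_OCA and VPA, and the ranges of Trf and Ftl1 overlapped in both groups. Hamp, Fth1 and Hamp2 formed the next tier, with means between 1605 and 1881 in VPA_OCA and between 1436 and 2375 in VPA. Fth1 stood before Hamp2 in VPA_OCA and after it in VPA, and within this tier neighbours in the order overlapped in both groups.

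Below these, each gene was apart from its neighbours in both groups on the per-length scale. Tfr2 had 91.5 ± 24.7 in VPA_OCA and 92.6 ± 16.5 in VPA, and Slc40a1 41.7 ± 4.29 and 37.2 ± 5.59. Hfe had 11.5 ± 0.845 in VPA_OCA and 11.9 ± 1.31 in VPA, and Tfrc 3.06 ± 1.03 and 4.19 ± 1.72. Bmp6 was last, at 0.718 ± 0.0937 in VPA_OCA and 1.04 ± 0.347 in VPA. The FPKM of the authors gave the same order with other distances, and on that scale Trf and Ftl1 did not overlap. For Trf it read 14020 ± 2479 in VPA_OCA and 11733 ± 1255 in VPA, since its length per gene, 1076 bases for Trf, is shorter than the longest coding transcript (2571 bases). Transferrin transcripts alone made up 1.1% to 1.76% of all normalized counts in VPA_OCA and 1.04% to 1.4% in VPA.

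**Figure D2:**
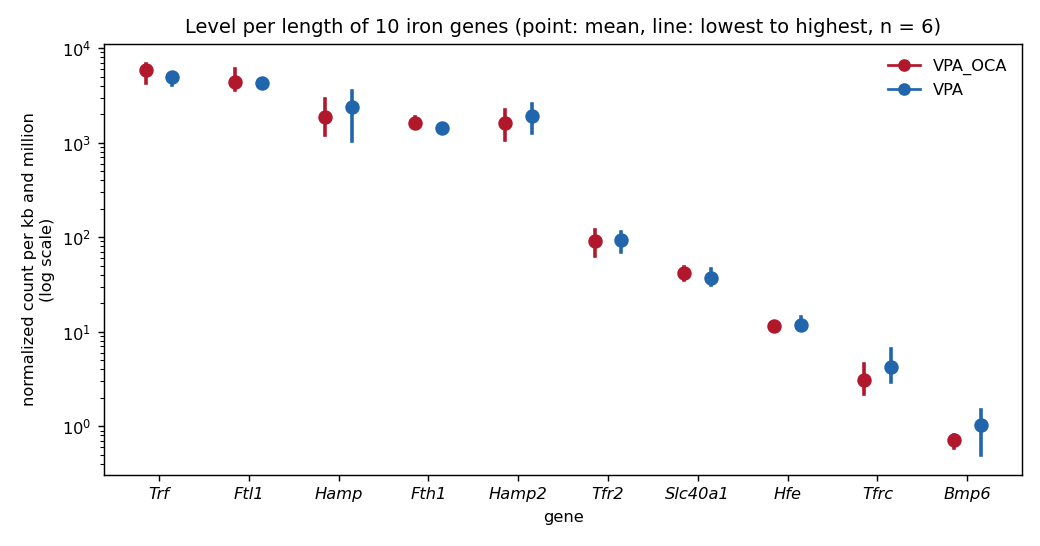
Normalized count per kilobase of the longest coding transcript and per 1000000 counts, on a log axis, for the 10 genes in the order of their VPA_OCA means; points are means and lines run from the lowest to the highest of 6 livers. Levels fall from Trf (5868 in VPA_OCA, 4910 in VPA) to Bmp6 (0.718 and 1.04), and the groups overlap for each gene.

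Neither hepcidin gene passed, and both varied widely between livers. Hamp (ENSMUSG00000050440, chromosome 7, 30942368 to 30944032, minus strand), which encodes the iron hormone, had a lowest, median and highest value of 10870, 14460 and 24680 normalized counts in VPA_OCA, against 9537, 18840 and 31900 in VPA. Its highest values were VPA replicates 6 and 4 and its lowest VPA replicate 1, so both ends of the range lay in VPA. The log2 fold change was -0.30 ± 0.28 (SE), with a limma adjusted p of 0.827. The 95% interval of the fold ran from 0.536 to 1.23, so neither a fall to near 0.536 of the VPA level nor a modest rise lay outside it.

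Hamp2 (ENSMUSG00000056978, chromosome 7, 30922372 to 30924681, minus strand) lies 17687 bases away, and its peptide did not act on iron when overexpressed in mice. Its lowest, median and highest values were 10200, 13830 and 20320 in VPA_OCA, against 12210, 17510 and 24670 in VPA. Its log2 fold change was -0.28 ± 0.21, with a limma adjusted p of 0.753 and an interval of the fold from 0.607 to 1.12. Values of the groups overlapped over most of their length.

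Hepcidin means were lower in VPA_OCA within numbers 4 to 6 and close together within 1 to 3. Within these, Hamp averaged 16640 ± 7180 in VPA_OCA and 25800 ± 8780 in VPA, and Hamp2 15040 ± 5070 and 21240 ± 3560 (SD, n = 3 each). Within numbers 1 to 3, Hamp averaged 16010 ± 5320 in VPA_OCA and 15740 ± 5900 in VPA, and Hamp2 14630 ± 4860 and 14510 ± 2680. The log2 fold changes of Hamp were 0.05 within 1 to 3 and -0.65 within 4 to 6 (limma adjusted p within each set = 0.969 and 0.506). The difference between the sets was tested as an interaction over all genes, and Hamp had a limma adjusted p of 0.73. Without VPA replicates 4 and 5 the log2 fold changes were -0.21 for Hamp and -0.20 for Hamp2 (limma adjusted p = 0.88 and 0.848).

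Transcripts of the pair were 92.4% identical, and of the 50-base stretches of Hamp, 16.6% also occurred in Hamp2, so reads could be split between them. Their sum does not depend on that split if each shared read was counted once, which the sources used here do not state. It had a lowest, median and highest value of 21070, 27135 and 45000 in VPA_OCA, against 21747, 34505 and 56570 in VPA. The share of Hamp2 in the sum was 47.9% ± 3.74 in VPA_OCA and 47.6% ± 6.78 in VPA (SD, n = 6 each), and ranged from 42.5% to 53% and from 39.4% to 56.1%. Both genes thus took about equal parts of the hepcidin counts in both groups, and the sum varied 2.14-fold among livers of VPA_OCA and 2.6-fold among those of VPA.

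**Figure D3:**
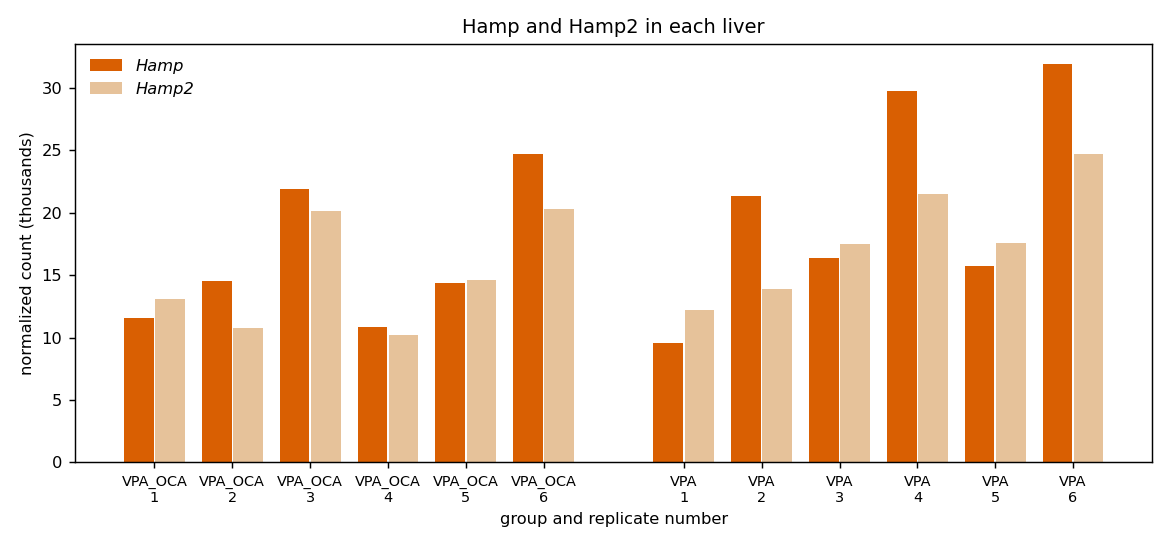
Normalized counts of Hamp and Hamp2 in each of the 12 livers, VPA_OCA left and VPA right, with the axis from 0. Both genes are high in the same livers, such as VPA_OCA replicates 3 and 6 and VPA replicates 4 and 6, and the lowest and highest Hamp values are in VPA replicates 1 and 6 (9537 and 31900).

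Scatter between livers differed from gene to gene. The within-group SD of log2 values was 0.57 for Hamp and 0.53 for Tfrc, above 95.3% and 93.7% of 11481 well-measured genes, whose median was 0.24. For Hamp2 and Bmp6 it was 0.4 each and for Tfr2 0.34. The steadiest were Fth1, at 0.09, and Hfe, at 0.12, above only 2.6% and 8.1% of genes. Trf (0.22), Slc40a1 (0.19) and Ftl1 (0.19) lay below the median of all genes.

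Among the sensors, Hfe barely varied. Hfe (ENSMUSG00000006611, chromosome 13, 23702034 to 23710854, minus strand), an MHC class I-like protein that binds transferrin receptors, had a lowest, median and highest value of 800.8, 886.5 and 957.9 normalized counts in VPA_OCA, against 840.1, 893 and 1073 in VPA. The groups overlapped and the log2 fold change was -0.06 ± 0.09, with a limma adjusted p of 0.906. The 95% interval of the fold ran from 0.849 to 1.09, the narrowest of the 10 on the log2 scale.

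Tfr2 (ENSMUSG00000029716, chromosome 5, 137569840 to 137587481, plus strand) encodes a second transferrin receptor, found mainly on hepatocytes and erythroid cells. It had a lowest, median and highest value of 4218, 5704 and 8020 in VPA_OCA, against 4779, 5890 and 7379 in VPA, a log2 fold change of -0.05 ± 0.17 (limma adjusted p = 0.97). Its values were higher in numbers 4 to 6 in both groups, by 0.55 ± 0.09 on the log2 scale. Within 4 to 6 it averaged 7433 ± 720 in VPA_OCA and 6927 ± 737 in VPA, and within 1 to 3 4541 ± 289 and 5244 ± 463 (SD, n = 3 each). The sign of its difference turned between the sets, with a limma adjusted p of 0.641 for the interaction.

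Bmp6 (ENSMUSG00000039004, chromosome 13, 38345107 to 38500302, plus strand), the ligand that signals iron stores to hepatocytes, was lower by mean in VPA_OCA without passing. It had a lowest, median and highest value of 45.44, 56.57 and 61.37 in VPA_OCA, against 39.11, 77.94 and 109.8 in VPA. All VPA_OCA livers lay below 5 of the 6 VPA livers, and the exception, VPA replicate 1, was the lowest of all 12. The log2 fold change was -0.46 ± 0.22, with an unadjusted limma p of 0.0488 and an adjusted p of 0.518. With the number sets as a term the limma adjusted p was 0.281. Without VPA replicates 4 and 5, the livers with muscle transcripts, the log2 fold change was -0.30 (limma adjusted p = 0.714).

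Bmp6 differed more within numbers 4 to 6, with a limma adjusted p of 0.552 for the interaction. It averaged 53.8 ± 7.92 there in VPA_OCA and 99.43 ± 15.1 in VPA, and 55.95 ± 6.96 and 59.97 ± 18.4 within 1 to 3 (SD, n = 3 each). The summed markers of sinusoidal endothelial cells, a main source of BMP6, were also lower by mean in VPA_OCA within 4 to 6, but not within 1 to 3. The summed level of these 12 genes averaged 5851 in VPA_OCA and 8187 in VPA within 4 to 6, and 5304 and 5035 within 1 to 3. Over all livers the sum ranged from 4674 to 6866 in VPA_OCA and from 4641 to 8456 in VPA. All 12 markers were detected, with a median log2 fold change of -0.24, and 0 of 12 passed over all livers. Lyve1, 1 of 12, fell with the number sets as a term (limma adjusted p = 0.0314), where 0.789% of all genes tested fell. Within 4 to 6 alone 1 of 12, Fcgr2b, fell (limma adjusted p = 0.0414), where 0.5% of genes passed in either direction. Both were named after seeing the data. Within 1 to 3 alone 0 of 12 passed, and the median log2 fold change of the 12 was 0.08. Lyve1 was nevertheless lower by mean there too, at 103.6 in VPA_OCA and 135.8 in VPA. A lower sum within 4 to 6 was not particular to endothelial markers. There the Kupffer cell sum averaged 8154 in VPA_OCA and 11220 in VPA, and the stellate cell sum 7879 and 9223. The hepatocyte sum went the other way, at 2990000 and 2811000. Within 1 to 3 the Kupffer cell sum averaged 7253 in VPA_OCA and 6253 in VPA, and the stellate cell sum 6341 and 6852. The part of endothelial cells in the Bmp6 difference was not tested. In bulk RNA, fewer cells of a type and less RNA per cell cannot be told apart.

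In transport, Tfrc was lower by mean in VPA_OCA within both sets of numbers. Tfrc (ENSMUSG00000022797, chromosome 16, 32608920 to 32632794, plus strand), which carries transferrin-bound iron into cells, had a lowest, median and highest value of 227.6, 285.8 and 494.1 in VPA_OCA, against 306.5, 323.2 and 712.2 in VPA. Numbers 4 to 6 were lower than 1 to 3 in both groups, a log2 difference of -0.79 ± 0.15. Within 4 to 6 the VPA_OCA livers had 232.6, 227.6 and 230.3 and the VPA livers 319.4, 306.5 and 318.3. Within 1 to 3 the VPA_OCA livers had 338.9, 494.1 and 387.9 and the VPA livers 666.8, 327 and 712.2, and VPA replicate 2 lay below the 3 VPA_OCA livers while the other VPA livers lay above them.

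The log2 fold change of Tfrc was -0.43 ± 0.26 (limma adjusted p = 0.662), and -0.42 within 1 to 3 and -0.45 within 4 to 6. With the number sets as a term the SE was 0.15 and the limma adjusted p 0.192. That fit without VPA replicate 2 gave -0.59 and a limma adjusted p of 0.00786, the 1 case among 12 such fits in which Tfrc passed, with adjusted p-values of up to 0.364 in the others. The 95% interval of the fold in the fit of all libraries was 0.506 to 1.08. The summed level of the 9 erythroid markers, cells rich in this receptor, ranged from 9052 to 28560 in VPA_OCA and from 9719 to 26140 in VPA. Within numbers 4 to 6 that sum averaged 13230 in VPA_OCA and 14650 in VPA, and within 1 to 3 19820 and 19270. The part of these cells in the Tfrc difference was not tested.

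**Figure D4:**
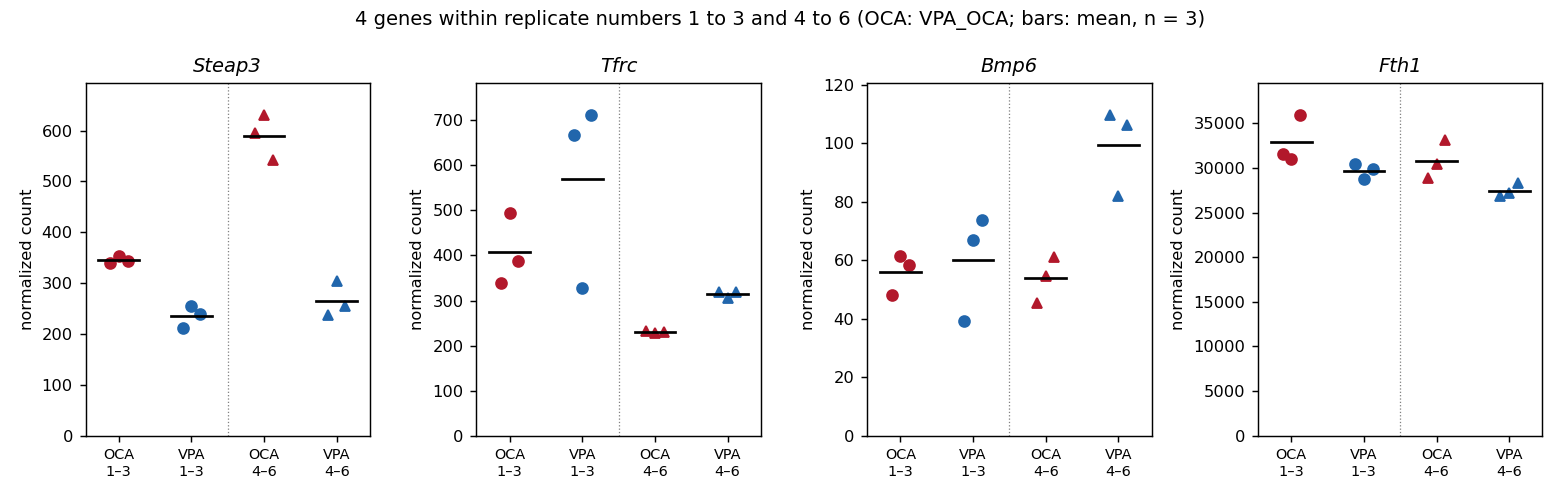
Normalized counts of Steap3, Tfrc, Bmp6 and Fth1 within replicate numbers 1 to 3 (left of the dotted line) and 4 to 6 (right), VPA_OCA before VPA in each, with bars at the mean of 3 livers and axes from 0. Tfrc and Bmp6 are lower by mean in VPA_OCA within 4 to 6, and Steap3 is higher in both sets. Fth1 is higher without overlap in both sets, where 3.41% of genes did not overlap within both in the same direction.

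Trf (ENSMUSG00000032554, chromosome 9, 103204001 to 103230444, minus strand), the plasma iron carrier, had a lowest, median and highest value of 232600, 338600 and 373000 in VPA_OCA, against 230800, 265000 and 307600 in VPA. VPA_OCA replicates 4 to 6, at 373000, 368200 and 369600, stood above all other livers. Its log2 fold change was 0.24 ± 0.22, with a limma adjusted p of 0.825, at 0.10 within 1 to 3 and 0.37 within 4 to 6. Within 4 to 6 it averaged 370300 ± 2470 in VPA_OCA and 286700 ± 22600 in VPA, and within 1 to 3 272500 ± 38300 and 253500 ± 19800 (SD, n = 3 each).

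Slc40a1 (ENSMUSG00000025993, chromosome 1, 45908068 to 45926523, minus strand), which encodes the exporter that hepcidin acts on, had a lowest, median and highest value of 2455, 2947 and 3624 in VPA_OCA, against 2260, 2704 and 3120 in VPA. The groups overlapped, and the log2 fold change was 0.16 ± 0.11, with a limma adjusted p of 0.725 and an interval of the fold from 0.95 to 1.32. Without VPA replicates 4 and 5 that log2 fold change was 0.05 (limma adjusted p = 0.923). Kupffer cells, which recycle iron from red cells, also make this exporter. The summed level of their 10 markers ranged from 5543 to 9600 in VPA_OCA and from 5065 to 14030 in VPA, with means of 8154 and 11220 within numbers 4 to 6, where Slc40a1 averaged 2990 ± 97.6 in VPA_OCA and 2510 ± 383 in VPA (SD, n = 3 each). Within 1 to 3 the sum averaged 7253 in VPA_OCA and 6253 in VPA, and Slc40a1 3005 ± 588 and 2854 ± 351. The means of the sum and of Slc40a1 thus had opposite orders within 4 to 6 and the same order within 1 to 3, and the part of these cells was not tested.

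In storage, Fth1 was slightly higher by mean in VPA_OCA within both sets of numbers. Fth1 (ENSMUSG00000024661, chromosome 19, 9982703 to 9985092, plus strand), the ferritin chain that oxidises iron, had a lowest, median and highest value of 28840, 31320 and 35970 in VPA_OCA, against 26870, 28520 and 30400 in VPA. It was the 1 member whose groups did not overlap within either set of numbers, in the same direction, where 3.41% of genes did so. Within 4 to 6 it averaged 30810 ± 2200 in VPA_OCA and 27460 ± 745 in VPA, and within 1 to 3 32870 ± 2690 and 29670 ± 856 (SD, n = 3 each). Its log2 fold change was 0.15 ± 0.11, with a limma adjusted p of 0.721, and with the number sets as a term 0.47. That SE is the moderated one and not the scatter of Fth1 alone, whose within-group SD was 0.09. The interval of the fold, 0.954 to 1.3, leaves out a rise beyond 1.3-fold.

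Ftl1 (ENSMUSG00000050708, chromosome 7, 45457944 to 45459884, minus strand), the chain that helps form the iron core, had a lowest, median and highest value of 76270, 84130 and 122100 in VPA_OCA, against 83240, 88070 and 100300 in VPA. The highest value, VPA_OCA replicate 6, lay well above the others, and the next was 100300 in VPA replicate 1. The log2 fold change was 0.01 ± 0.16, with a limma adjusted p of 0.997. The ratio of Ftl1 to Fth1 counts was 2.84 ± 0.426 in VPA_OCA and 3.12 ± 0.183 in VPA (SD, n = 6 each). In 5 of 6 VPA_OCA livers that ratio lay between 2.46 and 2.74, below all VPA livers (2.81 to 3.3), and VPA_OCA replicate 6 had 3.68. Ferritin genes have processed copies elsewhere in the mouse genome, and how the authors' counting treated shared reads is not given in the sources used here.

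Around these members, 6 lists of genes that regulate or carry out iron handling held 70 entries, of which 64 were tested. Of these 1 rose, 0 fell and 63 did not pass by limma, where 0.442% of all genes rose and 0.279% fell, and 7 of 64 had an unadjusted p under 0.05, where 9.55% of all genes did. With the number sets as a term the count was again 1, where 1.34% rose and 0.789% fell. The median log2 fold change of the 64 was -0.06, beside -0.00 over all genes tested.

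The gene that rose was Steap3, an endosomal ferrireductase that reduces the iron released from transferrin so that it can leave the endosome. Its lowest, median and highest values were 340, 447.5 and 631.3 normalized counts in VPA_OCA, against 212.6, 246.8 and 303.4 in VPA, and the groups did not overlap. That is a log2 fold change of 0.86 ± 0.17 (SE), a 1.81-fold difference, with a limma adjusted p of 0.0249. With the number sets as a term the adjusted p was 0.000678. Within 4 to 6 it averaged 589.6 ± 45.3 in VPA_OCA and 265.1 ± 34.4 in VPA (limma adjusted p within the set = 0.00565), and within 1 to 3 345.6 ± 7.13 and 235.4 ± 21.4 (0.102). Its call was lost in limma without trend (0.0834) and when any of VPA replicates 1, 2, 3, 4 or 6 or VPA_OCA replicates 4, 5 or 6 was left out, with adjusted p-values up to 0.0647, and log2 fold changes of 0.76 to 0.94 over all 12 libraries left out. With the number sets as a term it passed in all 12 fits that left out a library.

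In the list of uptake, reduction and oxidation, 1 of 13 rose and 12 did not pass. The importer of iron not bound to transferrin, Slc39a14, had 3724 ± 451 in VPA_OCA and 4253 ± 333 in VPA (log2 fold change -0.20, limma adjusted p = 0.537). Of 21 genes of BMP-SMAD signalling 0 passed and the median log2 fold change was -0.17. In 15 of the 21 it was negative, where it was in 9518 of the 19006 genes tested. The BMP co-receptor Hjv, needed for normal hepcidin expression, had 2039 ± 465 in VPA_OCA and 1553 ± 272 in VPA (limma adjusted p = 0.399, and 0.0531 with the number sets as a term). The signal transducer Smad9 had 154.5 ± 19.4 and 210.6 ± 54.2 (0.405). Hjv was thus higher and Smad9 lower by mean in VPA_OCA, neither passing.

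Of 7 genes of interleukin 6 and STAT3 input 0 passed, 6 had negative log2 fold changes and the median was -0.07. The receptor chain Il6ra had 933.7 ± 286 in VPA_OCA and 1378 ± 340 in VPA, and the feedback inhibitor Socs3 175.3 ± 60.8 and 120 ± 67.1 (limma adjusted p = 0.332 and 0.545). All 3 genes of the iron regulatory proteins had positive log2 fold changes and 0 passed. Ireb2, which encodes one of the proteins that bind the hairpins above, had 1857 ± 202 in VPA_OCA and 1621 ± 166 in VPA, and Fbxl5, which marks it for degradation when iron is ample, 632 ± 132 and 589.9 ± 89 (0.539 and 0.917).

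Of 12 genes of heme and hemoglobin iron recovery 0 passed, with a median of 0.01. The hemoglobin-binding haptoglobin (Hp) had 35350 ± 7540 in VPA_OCA and 45760 ± 5930 in VPA (limma adjusted p = 0.442). The macrophage receptor Cd163, which takes up haptoglobin with hemoglobin, had 176 ± 53.1 and 288.5 ± 144 (0.545), and within numbers 4 to 6 212.3 and 407.9, where the Kupffer marker sum was also lower by mean in VPA_OCA. Within 1 to 3 Cd163 had 139.6 and 169.1, while that sum was higher by mean in VPA_OCA, and the part of these cells was not tested. Of 8 genes of iron chaperones, ferritin turnover and mitochondrial iron 0 passed. Ncoa4, the receptor that delivers ferritin to lysosomes, had 2974 ± 258 in VPA_OCA and 3470 ± 258 in VPA, and the mitochondrial importer Slc25a37 906.9 ± 176 and 759.6 ± 65.5 (limma adjusted p = 0.362 and 0.583).

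**Figure D5:**
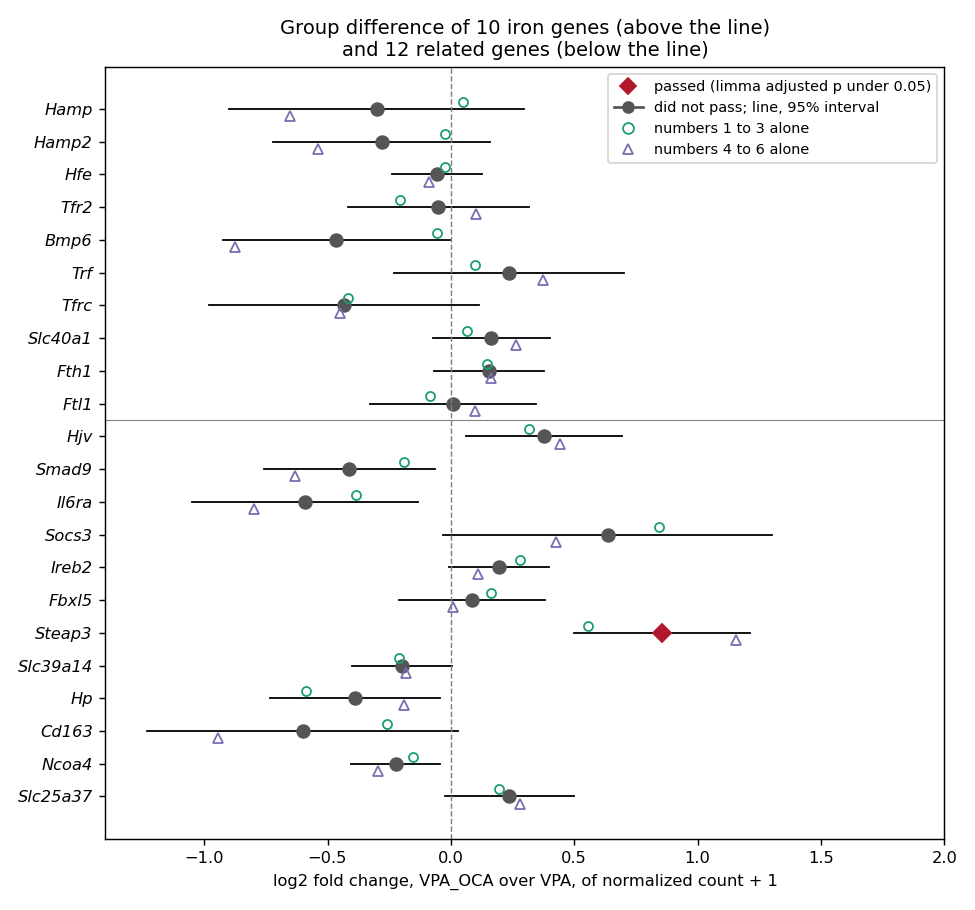
Log2 fold changes, VPA_OCA over VPA, of the 10 members (above the line) and 12 named genes of the iron lists (below), with 95% intervals; open symbols are the differences within numbers 1 to 3 and 4 to 6. Steap3 (0.86) is the one gene past the threshold, and the hepcidins and Bmp6 lie lower within 4 to 6 (-0.65 for Hamp, -0.54 for Hamp2, -0.87 for Bmp6) than within 1 to 3.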

How the data were processed

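RNA sequencing of 12 livers (6 VPA_OCA, 6 VPA) was analysed from 1 table. Per the labels' protocols, livers were frozen, RNA was taken up in Trizol and a TruSeq kit was used. The deposited normalized counts are a signal per gene, rounded to 4 significant digits. The submitters' processing notes name edgeR and GRCm38.p5, while the aligner, the counter and the use of strand are not stated there. The authors' FPKM, p-values, log2 ratios, GC fraction and length stand in the same table, per the file headers. FPKM equalled normalized count per length and library total (median ratio 0.9999 to 1.0001). A shifted decimal was repaired by dividing by 1000 (238 p-values, 10536 log2 ratios, 88 adjusted p-values), after which recomputed adjusted p-values differed by up to 0.538%. Values worth at most 20 reads came out whole, with a tolerance of 0.1, in 79.8% to 84.6% of cases per library, so reads were not recovered and no count model was used.

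Genes reaching 1 in 6 or more libraries were tested (19006) with limma 3.58.1 (R 4.3.3) on log2(value + 1), with an intensity trend, group as the term and a threshold of 0.05. In a simulated VPA_OCA against VPA comparison over 19567 genes, this found 31.3% of 1.5-fold, 95.5% of 2-fold and 100% of 4-fold changes. Of its 156 calls, 5 were false. How far the values of that comparison matched these livers in scatter, or in the difference between the number sets, was not tested. The percentages therefore do not give the chance of finding a change in a given member. Hamp and Tfrc had within-group SDs of log2 values of 0.57 and 0.53, where the median of 11481 genes was 0.24. The 95% interval of the fold for Hamp reached down to 0.536. Deviations from the group mean correlated between libraries of the same number (0.15 to 0.48 over 11481 genes in the 6 pairs). The difference between the number sets was not removed first, so these correlations do not separate pairs from sets. Only 4 of 12 libraries correlated best with their own number, and all 12 did so with a library of their own set, 1 to 3 or 4 to 6. The labels name no pairs, and pairing by number was used only in the replicate block. Members and lists were chosen with earlier results of these data known. Genes named are the members and, in each list, the 2 with the smallest p and any that passed, also with the number-set term. The replicate block takes the number as a term, and the number-set term takes 1 to 3 against 4 to 6. Fits with that term and a library left out, and naming Lyve1 and Fcgr2b, were chosen after seeing the data. Hjv is listed as Hfe2. Alternatives varied the filter, scaling, pseudocount, variance model, replicate block, number sets, libraries, unit and threshold. Promoters came from RefSeq (GRCm38.p6) and transcripts from GENCODE M21 (GRCm38). Python 3.11.15 was used.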

Additional observations from a re-analysis of the deposited data

Results flagged for a closer look

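Of 44 groups of values (22 named genes in each group of 6 livers), 1 held a liver far from the other 5, where chance gives about 1 in 20. Hjv measured 2050 normalized counts in VPA replicate 4, against 1341 to 1603 in the other VPA livers.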

How the results depend on the processing

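The count of members passing stayed at 0 in 40 of 41 alternatives. It became 1, Tfrc, when the number-set term was combined with leaving out VPA replicate 2, a combination chosen after seeing the data, and ranged from 0 to 1 over libraries left out. The count of list genes passing, 1, became 0 in limma without trend, within numbers 1 to 3 alone and at a threshold of 0.01, and ranged from 0 to 3 with libraries left out. The count over all genes, 137, became 210 with the replicate block, 404 with the number-set term, 223 at a threshold of 0.1 and 62 at 0.01, and with a library left out ranged from 92 to 146, or from 230 to 446 with the number-set term as well. The replicate block changed no call of a named gene. Some differences turned sign without passing. Hamp, at -0.30 in the fit of all libraries, became 0.05 within 1 to 3 alone. The others that turned sign lay near 0 in the fit of all libraries. Hfe became 0.01, Tfr2 0.03 and Ftl1 -0.02 without VPA replicates 4 and 5, which held skeletal muscle transcripts. Tfr2 became 0.01 with array weights and 0.10 within 4 to 6 alone, and ranged from -0.15 to 0.04 with libraries left out. Ftl1 became -0.00 with median-ratio rescaling and -0.08 within 1 to 3 alone, and ranged from -0.09 to 0.06 with libraries left out. The median of all genes lay between -0.009 and 0.008 under the rescalings. The causes were not tested. With the number-set term and 1 library left out, Hjv passed without VPA_OCA replicate 2 or 4 or VPA replicate 4, Il6ra without VPA_OCA replicate 4 or VPA replicate 1, Socs3 without VPA replicate 4 and Slc25a37 without VPA_OCA replicate 2.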
